A study of Homo sapiens with 5 samples.

Results

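The genes of the cytosolic ribosomal proteins were examined for peaks of ACTL6A, BRG1 and NRF2 at their transcription start sites. They were the protein-coding genes of GENCODE release 44 whose symbols start with RPL or RPS and a digit, plus RPLP0, RPLP1, RPLP2 and RPSA, without the RPS6K kinases, readthrough symbols with a hyphen and genes on chromosome Y. This gave 86 of 19689 protein-coding genes, 53 with RPL and 33 with RPS symbols, on 21 chromosomes. Of them, 8 were paralogs of another member. The symbol rule also took RPS19BP1, a nucleolar protein that binds RPS19 and is no part of the ribosome, and it left out a few genes whose products are, such as FAU and RACK1.

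Binding was profiled by CUT&Tag, in which an antibody tethers a transposase that cuts and tags the DNA around its target. All 5 libraries came from SNU638, an established human gastric cancer cell line, with no treatment or genetic change named in the labels. They were made with anti-ACTL6A, anti-BRG1 and anti-NRF2, with 1 library for each antibody, and with IgG, the control antibody, in 2 libraries. The deposited data are peak lists, so each antibody gives 1 list and no difference between genes, groups or lists could be set against replicate error. The intervals below are Wilson 95% intervals of a share and cover counting error only.

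The lists held 23917 peaks for ACTL6A, 48793 for BRG1 and 9045 for NRF2, against 11 and 1746 for the IgG libraries. The median peak rested on 6, 10 and 17 fragments at its summit in the ACTL6A, BRG1 and NRF2 lists, as recovered from the deposited fold enrichment and p-value. A BRG1 peak lay at a start of 5 of 6 epithelial marker genes (EPCAM, KRT8, KRT18, KRT19 and CDH1, not CLDN4), against 63.5% of all protein-coding genes. Of the blood cell markers, SPI1 had a BRG1 peak and PTPRC and CD3E had none. An ACTL6A peak lay at 4 of the 6 epithelial markers and an NRF2 peak at 0, against 38.5% and 28.1% of all genes. Any annotated start counted, so some of these peaks lay far from the main one. The ACTL6A summits lay 24200 bp (EPCAM) and 122 bp (KRT8) upstream, and 711 bp (KRT18) and 1073 bp (KRT19) downstream of it. The highest BRG1 summits of EPCAM and KRT8 lay 24167 and 20205 bp upstream.

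ACTL6A (BAF53A) is an actin-related subunit and BRG1 the ATPase of the BAF chromatin remodelling complexes, which slide or evict nucleosomes at promoters and enhancers. NRF2 is the transcription factor that binds antioxidant response elements and drives genes of glutathione synthesis and oxidative stress defence. Ribosomal proteins fold with ribosomal RNA into the large (RPL) and the small (RPS) subunit of the ribosome. Their genes are among the most strongly transcribed in growing cells, start transcription at a C within a run of pyrimidines, the TOP motif through which mTOR controls their translation, and have many processed pseudogenes.

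The start of transcription is shown for the members that the results below turn on, with 100 bases before and 30 bases from the start onward, in the direction of transcription. The windows come from RefSeq on GRCh38.p14, and each begins from the same base as the MANE Select transcript. Capitals mark a run of at least 5 pyrimidines at the start, the ETS core CCGGAAG, the YY1 core ATGGCG and the octamer TCGCGAGA, each on either strand and wholly inside the window. Matches that touch each other run together. The first set ranked among the 3 highest members of a list.
RPS3A, chr4:151099528-151099657, plus strand: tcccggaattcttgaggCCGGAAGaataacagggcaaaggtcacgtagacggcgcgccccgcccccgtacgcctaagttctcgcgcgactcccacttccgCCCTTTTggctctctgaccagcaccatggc
RPS25, chr11:119018314-119018443, minus strand: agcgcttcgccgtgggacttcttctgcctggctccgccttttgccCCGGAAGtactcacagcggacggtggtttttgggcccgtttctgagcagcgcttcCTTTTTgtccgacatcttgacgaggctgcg
RPL35, chr9:124861928-124862057, minus strand: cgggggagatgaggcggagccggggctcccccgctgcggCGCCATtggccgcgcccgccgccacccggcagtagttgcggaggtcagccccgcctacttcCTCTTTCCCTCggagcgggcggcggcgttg
RPS19, chr19:41860155-41860284, plus strand: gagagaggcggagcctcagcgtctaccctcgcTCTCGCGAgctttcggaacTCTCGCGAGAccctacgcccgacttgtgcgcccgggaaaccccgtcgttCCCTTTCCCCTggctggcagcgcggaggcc
The next set had no peak of any antibody within 1 kb of a start.
RPL19, chr17:39200183-39200312, plus strand: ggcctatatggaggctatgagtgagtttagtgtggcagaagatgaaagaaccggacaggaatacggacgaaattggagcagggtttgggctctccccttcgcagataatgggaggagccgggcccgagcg
RPL29, chr3:51995866-51995995, minus strand: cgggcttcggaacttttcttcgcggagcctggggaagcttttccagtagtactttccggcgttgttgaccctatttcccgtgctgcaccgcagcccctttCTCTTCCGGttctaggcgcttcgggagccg
RPL41, chr12:56116533-56116662, plus strand: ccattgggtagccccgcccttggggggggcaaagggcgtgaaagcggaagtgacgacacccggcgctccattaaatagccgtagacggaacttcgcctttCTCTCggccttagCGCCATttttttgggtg
The last set pairs each parent gene with its paralog.
RPL22, chr1:6199566-6199695, minus strand: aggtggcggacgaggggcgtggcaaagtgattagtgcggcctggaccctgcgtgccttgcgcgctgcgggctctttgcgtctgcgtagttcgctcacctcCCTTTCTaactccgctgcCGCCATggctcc
RPL22L1, chr3:170870166-170870295, minus strand: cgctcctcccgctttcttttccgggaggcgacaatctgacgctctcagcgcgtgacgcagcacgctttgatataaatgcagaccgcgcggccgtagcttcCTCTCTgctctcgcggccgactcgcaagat
RPS27, chr1:153990662-153990791, plus strand: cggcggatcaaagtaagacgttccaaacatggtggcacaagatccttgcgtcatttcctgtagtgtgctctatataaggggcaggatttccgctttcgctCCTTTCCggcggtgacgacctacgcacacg
RPS27L, chr15:63157448-63157577, minus strand: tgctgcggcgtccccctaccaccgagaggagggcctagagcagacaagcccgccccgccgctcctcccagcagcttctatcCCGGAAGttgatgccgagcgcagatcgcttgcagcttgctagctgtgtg
RPL10, chrX:154398277-154398406, plus strand: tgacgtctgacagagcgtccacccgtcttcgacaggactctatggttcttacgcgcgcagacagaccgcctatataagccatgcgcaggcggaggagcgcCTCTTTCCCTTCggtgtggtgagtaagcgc
RPL10L, chr14:46651752-46651881, minus strand: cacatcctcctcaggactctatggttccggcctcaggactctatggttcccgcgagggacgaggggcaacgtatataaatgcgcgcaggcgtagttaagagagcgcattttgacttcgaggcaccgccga

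Most ribosomal protein genes carried a BRG1 peak and most carried an ACTL6A peak, while about as many had an NRF2 peak as did not. A gene was counted as having a peak when at least 1 peak came within 1 kb of any of its protein-coding transcript starts. BRG1 had a peak at 76 of 86 members (88.4%, 79.9% to 93.6%), against 63.5% of all protein-coding genes. ACTL6A had one at 62 members (72.1%, 61.8% to 80.5%), against 38.5% of all genes. NRF2 had one at 42 members (48.8%, 38.6% to 59.2%), against 28.1% of all genes.

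The IgG lists had no peak at any member. The count was 0 of 86 in both, which allows a share of up to 4.28%, against 0% of all genes for IgG 1 and 0.152% for IgG 2. Of the peaks that were counted at the members, 66 for ACTL6A, 91 for BRG1 and 42 for NRF2, 0 overlapped an IgG peak by even 1 bp. Across whole lists, IgG peaks overlapped 11.2% of the NRF2 peaks, 1.74% of the ACTL6A peaks and 0.697% of the BRG1 peaks. Few IgG peaks lay within 1 kb of any protein-coding start, 0 of 11 in IgG 1 and 29 of 1746 in IgG 2. This left little room for an overlap at the members, so its absence there says little about them. The sources do not name the control given to the peak caller, so whether an IgG library entered the antibody lists is unknown.

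All genes can include some that are silent in these cells, so other housekeeping groups were set beside the members. Among 78 mitochondrial ribosomal protein genes, whose products make the ribosome of mitochondria, BRG1 had a peak at 74 (94.9%, 87.5% to 98%), ACTL6A at 51 (65.4%, 54.3% to 75%) and NRF2 at 31 (39.7%, 29.6% to 50.8%). Among 40 proteasome subunit genes the numbers were 38 for BRG1, 28 for ACTL6A and 23 for NRF2 (57.5%, 42.2% to 71.5%). Among 16 other translation genes with TOP messages, such as EEF1A1, NPM1 and TPT1, they were 16, 13 and 13. The intervals of the members overlapped those of the mitochondrial ribosomal protein and proteasome groups in every list.

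**Figure D1:**
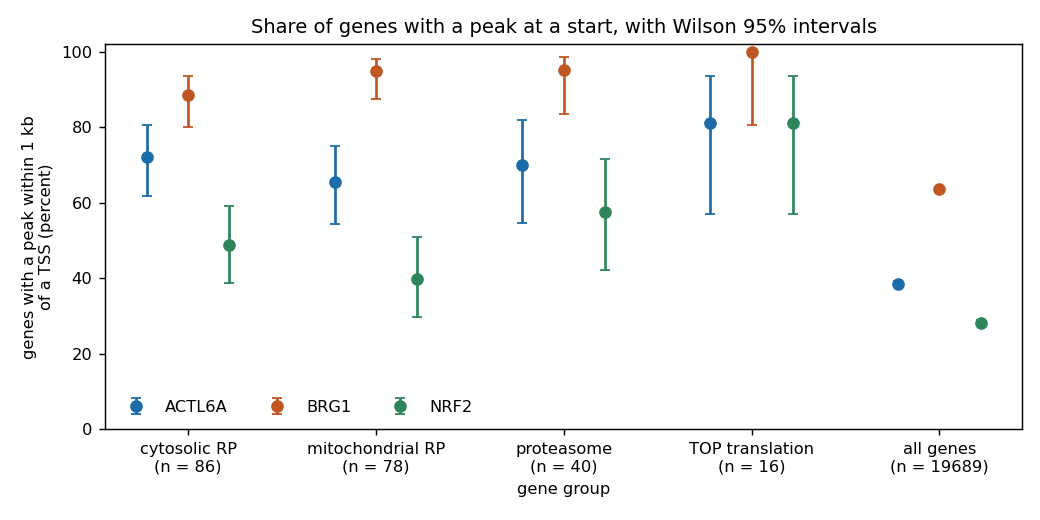
Percent of genes with a peak within 1 kb of a TSS (y axis) in 5 gene groups (x axis) for each antibody list, with bars for Wilson 95% intervals. Cytosolic ribosomal protein genes (RP) sit above all genes for each antibody, at 72.1%, 88.4% and 48.8%, and their intervals overlap those of the mitochondrial RP and proteasome genes.

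ACTL6A and NRF2 peaks fell almost only on members that also had a BRG1 peak, as they did over all genes. All 3 had a peak at 35 members (40.7%, 30.9% to 51.3%), against 22.1% of all genes, and ACTL6A and BRG1 without NRF2 at 25 (29.1%, against 14.7%). BRG1 alone had a peak at 10 members (11.6%, against 21.1% of all genes), RPL10A, RPL23, RPL24, RPL30, RPL32, RPLP1, RPS15, RPS21, RPS3 and RPS4X. BRG1 and NRF2 without ACTL6A had one at RPL10, RPL18, RPL7A, RPL8, RPS10 and RPS28 (6.98%, against 5.6%). ACTL6A alone had one at RPL35A and RPS20 (2.33%, against 1.59%), and NRF2 alone at RPL17 (1.16%, against 0.361%). At 7 members there was none, 8.14% against 34.4% of all genes. No member had ACTL6A and NRF2 without BRG1, a pattern found at only 0.0711% of all genes. BRG1 thus had a peak at 60 of the 62 members with ACTL6A and at 41 of the 42 members with NRF2, shares of 96.8% and 97.6%, against 95.7% and 98.5% over all genes with such peaks.

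**Figure D2:**
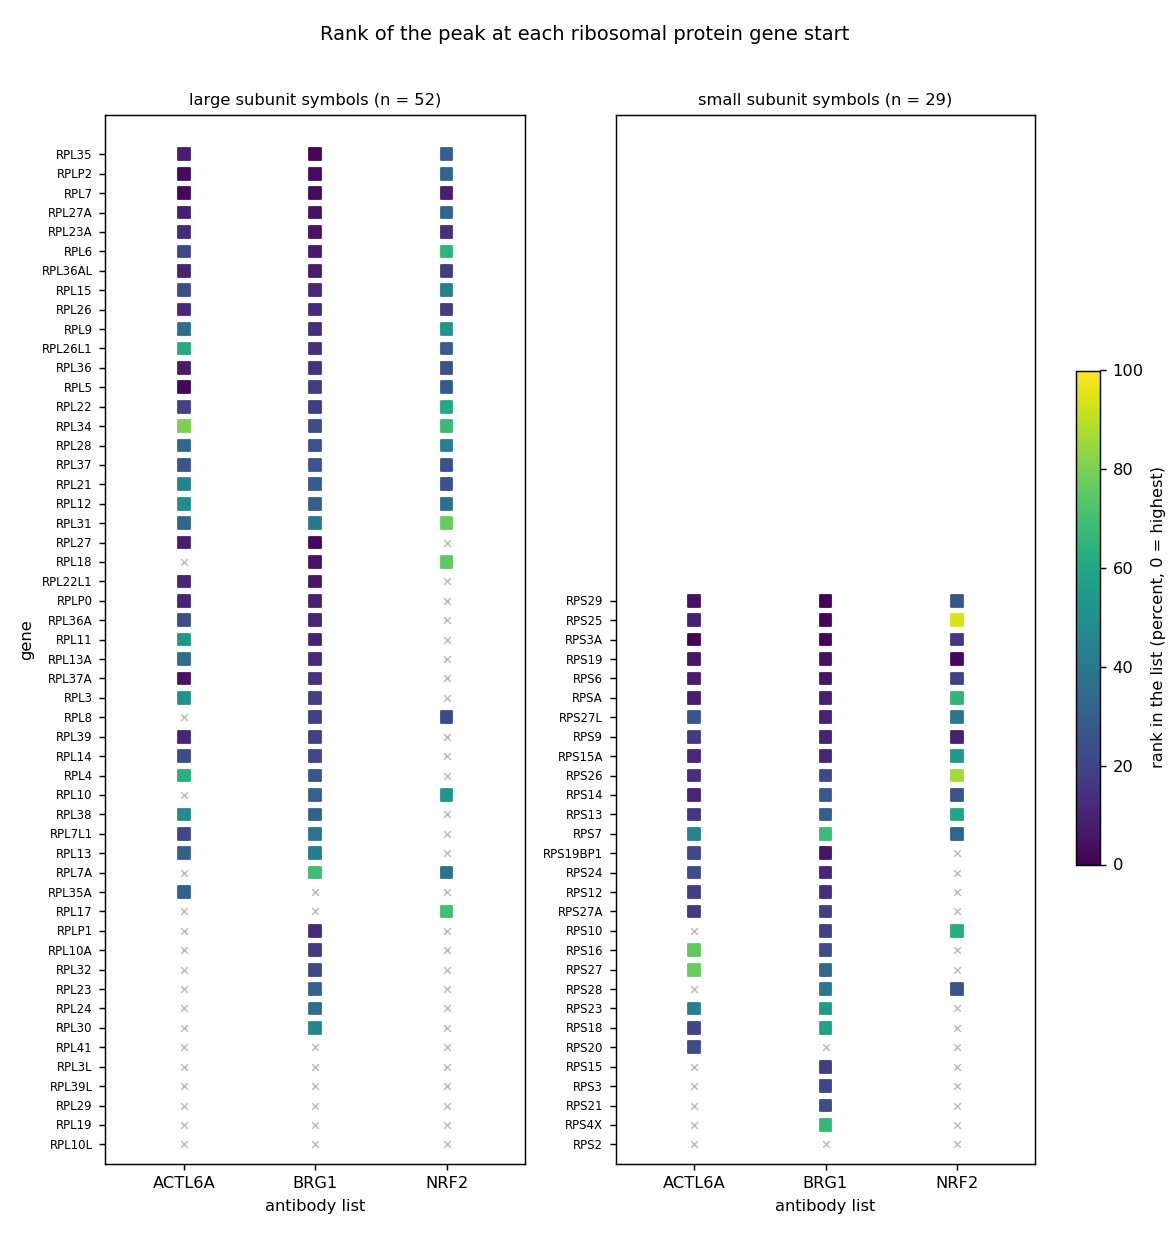
The 81 of 86 members reported by name (rows, RPL symbols left and RPS symbols right) in the 3 antibody lists (columns). Squares are coloured by the rank of the member's highest peak in percent of the list, dark being highest, and grey crosses mark no peak within 1 kb of a start. The map shows 33 members with all 3 peaks, 7 with none and BRG1 as the fullest column.

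The subunits had similar shares. Large subunit symbols had a BRG1 peak at 45 of 53 genes (84.9%, 72.9% to 92.1%) and small subunit symbols at 31 of 33 (93.9%, 80.4% to 98.3%). For ACTL6A the numbers were 36 of 53 and 26 of 33, and for NRF2 25 of 53 and 17 of 33. RPL5 and RPL11, which with 5S ribosomal RNA bind MDM2 when ribosome assembly fails, both had ACTL6A and BRG1 peaks, and RPL5 had an NRF2 peak. The stalk proteins RPLP0, RPLP1 and RPLP2, which recruit elongation factors, and RPL12 at the base of the stalk all had BRG1 peaks, 3 of the 4 had ACTL6A peaks and 2 had NRF2 peaks. Of 8 genes among those mutated in Diamond-Blackfan anaemia (RPS19, RPL5, RPL11, RPL35A, RPS7, RPS10, RPS24 and RPS26), ACTL6A had a peak at 7, all but RPS10, and BRG1 at 7, all but RPL35A. NRF2 had a peak at 5 of the 8. These role groups were chosen after the values had been seen.

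For BRG1 and ACTL6A, the members' peaks stood in the upper part of their lists, near the ranks of all genes with a peak. Peaks were ranked within each list by the deposited -log10 q-value, and a rank is given as a percent of the list, with the highest peak lowest. The median rank was 17.8% for the 76 members with a BRG1 peak, against 18.8% for all genes with one, and 20.7% for ACTL6A, against 20.7%. For NRF2 it was 32.4% for 42 members, with a 95% interval from order statistics of 25.4% to 52%, against 41.8%. That order turned when peaks were ranked by fold enrichment, with medians of 45.4% for the members and 41.9% for all genes. In the highest 10% of the list lay 21 members for BRG1 (27.6%, against 29.3% of all genes with a peak), 16 for ACTL6A (25.8%, against 26.7%) and 4 for NRF2 (9.52%, against 7.87%). The members high in the NRF2 list included RPS19, RPL7 and RPS9. The TOP translation genes stood higher than the members for BRG1 and ACTL6A, with medians of 7.15% and 5.31%.

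In the ACTL6A list the highest member was RPS3A, a small subunit protein, at rank 167 (chr4:151099170-151099851), with 35 fragments at its summit where 1 was expected. RPL7, of the large subunit, followed at rank 414 (chr8:73293902-73294310), with 27 fragments where 1.03 were expected. RPL5 came next at rank 448 (chr1:92831865-92832305), with 24 fragments where 0.748 were expected. These 3 peaks lay 198 bp upstream, 523 bp upstream and 36 bp downstream of the start. At the other end were RPL34 at rank 19218 (4 fragments), RPS27 at 18374 (5 fragments) and RPS16 at 17929 (5 fragments), with 0.382, 0.486 and 0.456 expected, so the weakest ACTL6A peaks of the family rested on a handful of fragments.

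In the BRG1 list RPS29, a zinc-binding small subunit protein, was highest at rank 297 (chr14:49586146-49586861), with 80 fragments where 3.04 were expected. RPS25, which many viral internal ribosome entry sites need, had rank 405 (chr11:119018406-119018988) and 72 fragments where 2.76 were expected. RPL35, which lines the exit of the nascent peptide, had rank 557 (chr9:124862008-124862430) and 70 fragments where 3.21 were expected. These peaks lay 374, 273 and 209 bp upstream of their starts. The lowest members were RPL7A at rank 33409 (12 fragments, 2.36 expected), RPS7 at 33295 (6 fragments, 0.518 expected) and RPS4X at 32445 (8 fragments, 0.966 expected).

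In the NRF2 list the 3 highest members included RPS19 and RPL7. RPS19, the gene most often mutated in Diamond-Blackfan anaemia, had rank 178 (chr19:41859706-41860313), with 82 fragments where 6.61 were expected. RPL7 had rank 758 (chr8:73293452-73294626), with 45 fragments where 6.54 were expected. Both summits lay upstream, by 307 and 524 bp. The lowest were RPS25 at rank 8544 (12 fragments) and RPS26 at 7805 (15 fragments), with 2.88 and 3.81 expected. RPS25 was thus second in the family for BRG1 and last among the members with an NRF2 peak. RPL7 was among the 3 highest for both ACTL6A and NRF2.

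Across members, ACTL6A and BRG1 ranked alike. Over the 60 members with both peaks, Spearman's rho of the -log10 q-values was 0.621, against 0.566 over 7251 genes with both, and for NRF2 against BRG1 it was 0.288 over 41 members, against 0.441. These are descriptions across genes, which share the same libraries and are not independent replicates. The ACTL6A and BRG1 peaks overlapped at 53 of the 60 members (88.3%, against 86.8% of all genes with both), with a median distance of 80.5 bp between summits, against 86 bp. The NRF2 and BRG1 peaks overlapped at 40 of 41 members (97.6%, against 91.6% of all genes with both), with a median distance of 93 bp, against 144 bp.

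**Figure D3:**
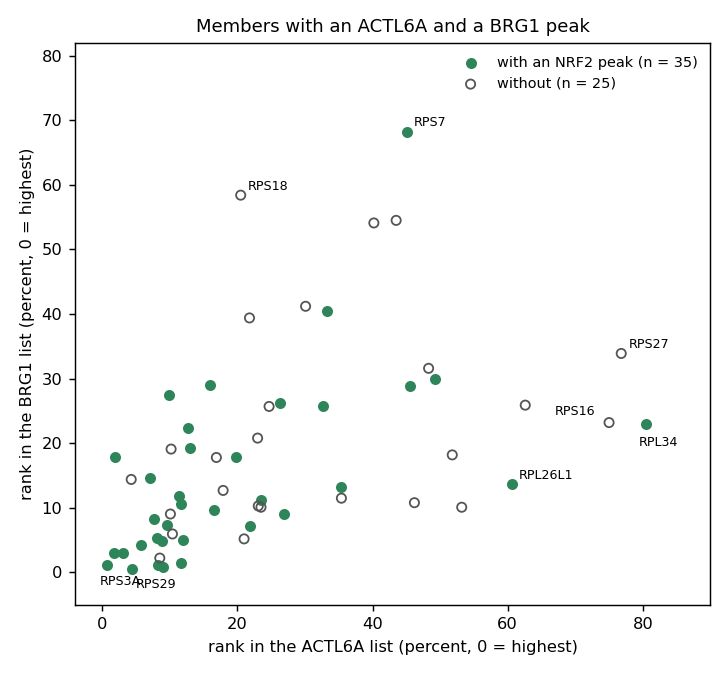
Rank in percent of the list for ACTL6A (x axis) and BRG1 (y axis) at the 60 members with both peaks, filled where the member also has an NRF2 peak (35) and open where it does not (25). Members high in one list tend to be high in the other, with RPS3A and RPS29 near the origin, RPS7 and RPS18 lower for BRG1, and RPL34, RPS27 and RPS16 lower for ACTL6A.

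The summits lay mostly upstream of the start. For each member the highest-ranked peak at a start was measured from the MANE Select start, with negative distances upstream. The summit was upstream at 56 of 62 members for ACTL6A (90.3%, 80.5% to 95.5%), at 64 of 76 for BRG1 (84.2%, 74.4% to 90.7%) and at 33 of 42 for NRF2 (78.6%, 64.1% to 88.3%). Over all genes with a peak the shares were 69.9%, 61.5% and 58.1%. For BRG1 the summit was upstream at 40 of 74 mitochondrial ribosomal protein genes (54.1%, 42.8% to 64.9%), at 24 of 38 proteasome genes (63.2%, 47.3% to 76.6%) and at 15 of 16 TOP translation genes (93.8%, 71.7% to 98.9%). For BRG1 the interval of the members lay above that of the mitochondrial ribosomal protein genes and overlapped those of the other 2 groups. For ACTL6A it overlapped those of all 3 groups, with 70.6% (57% to 81.3%) for the mitochondrial genes and 92.3% (66.7% to 98.6%) for the TOP translation genes. For NRF2 it lay above that of the proteasome genes (43.5%, 25.6% to 63.2%). The members' NRF2 interval overlapped that of the mitochondrial genes (48.4%, 32% to 65.2%) and that of the TOP translation genes (92.3%, 66.7% to 98.6%).

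The median distance was -122 bp for ACTL6A, with quartiles of -229 and -60.5 bp, -133 bp for BRG1, with quartiles of -248 and -65.8 bp, and -206 bp for NRF2, with quartiles of -444 and -74 bp. Over all genes the medians were -112, -78 and -78 bp. The 95% interval of the members' median, from order statistics, was -179 to -88 bp for ACTL6A, -186 to -103 bp for BRG1 and -246 to -118 bp for NRF2, so it held the value of all genes for ACTL6A alone. Without RPS19BP1 the ACTL6A median was -109 bp, nearer the start than the -112 bp of all genes. Measured from the nearest protein-coding start instead, the BRG1 median was -98 bp, and the summit was upstream at 60 of 76 members (78.9%, against 61.6% of all genes). Measured as before but over the members with no other gene start within 1 kb, the shares upstream were 31 of 35 for ACTL6A, 37 of 43 for BRG1 and 16 of 20 for NRF2, against 67.4%, 59% and 53.9% of all such genes. RPL36 and RPL6 had their highest BRG1 peak at a far alternative start, 9643 and 9425 bp upstream. The BRG1 peaks of RPL36 and RPL6 nearest the main start lay 109 and 81 bp upstream, at ranks 24019 and 22546. The only ACTL6A and NRF2 peaks of RPL36 lay 9597 and 9515 bp upstream, and the only NRF2 peak of RPL6 9435 bp upstream. With 1 start per gene, 61 members had an ACTL6A peak (all genes 34.6%), 40 an NRF2 peak (26%) and 33 all 3 (20.2%).

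**Figure D4:**
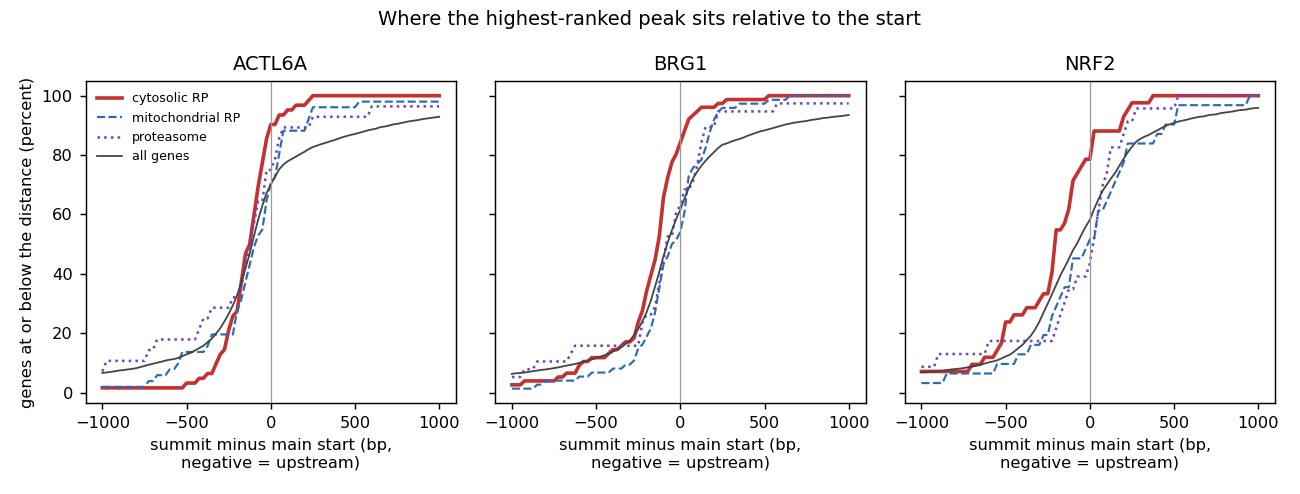
Cumulative percent of genes (y axis) by the distance of the summit from the main start in bp (x axis, negative upstream), 1 panel for each antibody list and 1 line for each gene group. At the start the line of the cytosolic ribosomal protein genes (RP) stands at 90.3%, 84.2% and 78.6%. At that point it is above the lines of mitochondrial RP, proteasome and all genes. The TOP translation genes, not drawn, had 92.3%, 93.8% and 92.3% upstream.

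Other genes often started nearby. Another protein-coding or lncRNA gene started within 1 kb of 36 of the 86 members, against 5673 of all 19689 protein-coding genes. At 34 of these members it was on the opposite strand, and at 16 that neighbour was protein-coding. The counts by strand and kind of neighbour are given for the members alone, with no share over all genes beside them. A peak between neighbouring starts cannot be given to 1 gene. BRG1 had a peak at 33 of these 36 members and at 43 of the other 50, ACTL6A at 27 and 35, and NRF2 at 22 (61.1%, 44.9% to 75.2%) and 20 (40%, 27.6% to 53.8%). Over all genes the shares with and without such a neighbour were 84.3% and 55.1% for BRG1, 58.3% and 30.5% for ACTL6A, and 48% and 20.1% for NRF2. With a neighbour, the BRG1 share of the members was 91.7%, with an interval of 78.2% to 97.1%. Among the divergent pairs were RPL35 with ARPC5L, RPL12 with LRSAM1, RPL18 with SPHK2 and RPS16 with SUPT5H.

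At 10 members BRG1 had no peak within 1 kb of a start. RPL35A and RPS20 nevertheless had an ACTL6A peak, of 8 fragments 303 bp upstream (rank 7213) and of 9 fragments 109 bp upstream (rank 5582). RPL17, which shares its start region with the readthrough gene RPL17-C18orf32, had an NRF2 peak of 15 fragments at rank 6308. Its nearest BRG1 summit was 5272 bp downstream, 59 bp from the start of C18orf32. These members were marked by an antibody other than BRG1.

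RPL41, which encodes the shortest ribosomal protein, fell outside the limit by little. Its nearest summits lay 1536 bp (ACTL6A, rank 762), 1817 bp (BRG1, rank 5128) and 1557 bp (NRF2, rank 1779) downstream of its start, within 190 bp of the starts of ESYT1 or ZC3H10. RPL19 and RPS2 had their nearest BRG1 summit 2552 and 3792 bp upstream, that of RPL19 being 29 bp from the start of CACNB1. For RPL29 it was 5040 bp downstream. All 4 encode ordinary ribosomal proteins, and none of the lists had a summit closer to their starts than these distances.

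The 3 others without a peak were paralogs, RPL10L, RPL39L and RPL3L. RPL10L and RPL39L are best known from testis and RPL3L from skeletal and heart muscle. The nearest BRG1 summit was 790620 bp upstream of RPL10L, 38127 bp downstream of RPL39L and 4384 bp downstream of RPL3L. Their parents differed among themselves. RPL10 had BRG1 and NRF2 peaks (ranks 15018 and 4755), RPL39 had ACTL6A and BRG1 peaks (ranks 2435 and 9310), and RPL3 had ACTL6A and BRG1 peaks (ranks 12396 and 8861).

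The other 5 paralogs all had ACTL6A and BRG1 peaks. RPL22L1 ranked 2478 for ACTL6A and 2908 for BRG1, above its parent RPL22 at 4744 and 8730, while RPL22 alone of the pair had an NRF2 peak, at rank 5480. RPS27L, a p53 target, ranked 6431 and 4436, above RPS27 at 18374 and 16523, and had an NRF2 peak at rank 3578, where RPS27 had none. RPL36AL ranked 2300 for ACTL6A and 3572 for BRG1, against 5626 and 4934 for RPL36A, and only RPL36AL had an NRF2 peak, at rank 1570. MGAT2 starts within 1 kb of RPL36AL on the opposite strand.

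The remaining pairs ran the other way. RPL26L1 ranked 14493, 6697 and 2649 in the ACTL6A, BRG1 and NRF2 lists, below its parent RPL26 at 2727, 5784 and 1608. RPL7L1 ranked 5218 and 19213 for ACTL6A and BRG1 without an NRF2 peak, below RPL7 at 414 and 1480. Over the 300 bases of the RefSeq windows the longest shared run was 7 bases for RPL22 and RPL22L1, 8 for RPS27 and RPS27L, 8 for RPL36A and RPL36AL and 16 for RPL10 and RPL10L, the longest of these 4 pairs.

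Ribosomal proteins that the symbol rule left out also had peaks. FAU, which makes RPS30 as a fusion with a ubiquitin-like protein, had ACTL6A and BRG1 peaks at ranks 1809 and 3815. RACK1, a scaffold on the small subunit, had peaks of all 3 at ranks 10866, 23173 and 4474, the NRF2 peak lying at an alternative start 2738 bp upstream of the main one. RPS19BP1 had ACTL6A and BRG1 peaks at ranks 5012 and 2538.

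The promoter windows were searched for features that had no part in the choice of members. A RefSeq window, from 250 bases before to 50 bases after a start, was matched to 68 members, and 65 that began from the MANE Select start were used, beside 14551 of all genes. The 18 members not matched included RPL23, RPL23A, RPL30, RPL37, RPL39L, RPL3L, RPL5, RPL7, RPL8, RPS15A, RPS19BP1, RPS2 and RPS20, and RPL26L1, RPL6 and RPS29 had another start in the table. A run of at least 5 pyrimidines from the first base of the transcript, a TOP-like start, was present at 47 of 65 members (72.3%, 60.4% to 81.7%), against 4.87% of all genes. It was present at 5 of 68 mitochondrial ribosomal protein genes (7.35%). Of the other translation genes, which were chosen for their TOP messages, 10 of 11 had it (90.9%). The first base was a C at 51 members (78.5%), against 10.5%. As the windows above show, RPL35, RPS19 and RPL10 begin with runs of 11, 11 and 12 pyrimidines, whereas RPL19, RPS27L and RPL10L begin with a purine.

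The octamer TCGCGAGA lay in 12 of 65 windows (18.5%, 10.9% to 29.6%), against 1.96% of all genes and 2.94% of mitochondrial ribosomal protein genes. RPS19 held it 3 times, as the window above shows, where matches on opposite strands overlap in a palindrome. RPL17, RPL26 and RPS6 held 2 matches each. The ETS core CCGGAAG lay in 23 windows (35.4%, against 15.1% of all genes and 44.1% of mitochondrial ribosomal protein genes). The YY1 core ATGGCG lay in 24 windows (36.9%, against 15.4% and 48.5%). The GC box GGGCGG (58.5%, against 62.6%), the E-box CACGTG (6.15%, against 8.93%), the TATA box TATAAA (10.8%, against 9.48%) and the ARE core TGACNNNGC (12.3%, against 14.5%) lay about as often in members as in all genes. Both strands were searched for all 7 motifs, which were chosen with the sequences known, so no test was made, and a match says only that the letters are present.

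The kind of start was set beside the peaks. Of the 47 members with a TOP-like start, BRG1 had a peak at 44 (93.6%), ACTL6A at 37 (78.7%) and NRF2 at 23 (48.9%). Of the 18 others the numbers were 15 (83.3%), 10 (55.6%) and 8 (44.4%). Among genes outside the family with a TOP-like start the shares were 71.6% for BRG1, 46.6% for ACTL6A and 31.9% for NRF2. Among those without they were 65.3%, 40.5% and 29.9%. The BRG1 summit was upstream at 37 of 44 members with a TOP-like start (84.1%, 70.6% to 92.1%) and at 11 of 15 without (73.3%, 48% to 89.1%). Among genes outside the family the BRG1 summit was upstream at 61.1% of 473 genes with a TOP-like start and at 62.4% of 9031 without. The octamer was present in 11 of the 59 windows of members with a BRG1 peak and in 1 of the 6 windows of members without one.

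The pseudogenes of the family were nearly free of peaks. GENCODE named 1600 pseudogenes after 78 of the members, 1583 of them processed, with up to 133 for 1 gene, RPL21. The peaks were called on uniquely mapped reads, so reads that fit a gene and its copy equally were not counted at either. BRG1 had a peak within 1 kb of the start of 52 pseudogenes (3.25%, 2.49% to 4.24%), against 6.83% of all 15233 pseudogenes. ACTL6A had one at 23 (1.44%, against 3.52%) and NRF2 at 9 (0.562%, against 1.54%). Of the 52 with BRG1, 10 had a protein-coding start within 2 kb, as had 65 of the 1600. Members with a BRG1 peak had a median of 11 pseudogenes and those without one a median of 16.

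Many ribosomal protein genes carry small nucleolar RNAs, which guide modification of ribosomal RNA, in their introns. Such host genes made up 28 members, with 60 snoRNAs in all. BRG1 had a peak at 25 of the 28 hosts (89.3%) and at 51 of the 58 others (87.9%). ACTL6A had one at 71.4% and 72.4%, and NRF2 at 50% and 48.3%. Hosts and other members had nearly the same shares in each list.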

How the data were processed

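SNU638 cells were profiled by CUT&Tag with 5 libraries. According to the paper's methods, peaks were called with MACS2 at a q-value below 0.05 on uniquely mapped reads. The labels also name fastp 0.23.0, BWA, FastQC, deepTools and HOMER 4.11, and the build hg38. The control given to the caller is not given in the sources used here. For each peak the authors deposited a score, a fold enrichment (ratio) over the expected signal, and -log10 p and -log10 q-values.

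Peaks were placed against protein-coding starts of GENCODE release 44. Fragments at a summit were solved from the fold (pseudocount 1) and the Poisson p-value as whole numbers, with a tolerance of 0.001 in -log10 p, and were found for at least 98.9% of each list. The lists give no library depth. Lists were set side by side by ranks and counts alone. No test was made, because each antibody had 1 library. Members, groups and lists were chosen with earlier results of these data known. Genes named with values were the 3 highest and 3 lowest members of each antibody list, members without a BRG1 peak, paralogs with their parents, and FAU and RACK1. Some genes that fall under this rule are not reported here. Any other gene named was chosen after its values were seen. Alternatives were other distances, starts, peak thresholds, ranks and members, and peaks shared with IgG left out. Routines were tested on simulated data. The work was done in Python 3.11.15 with pandas 2.3.3, NumPy 2.4.6, matplotlib 3.10.9 and SciPy 1.17.1.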

Additional observations from a re-analysis of the deposited data

How the results depend on the processing

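Each antibody had 1 library, so replicate error is unknown, and a gene without a peak may have fallen under the caller's threshold. Of 87 alternative values, 14 were IgG counts at 0, and 12 were counts that leaving out peaks shared with IgG could not alter, since 0 member peaks overlapped IgG. Of the other 61, 53 stayed within 1.5 times the count or within the 95% interval of the median and 8 moved. The 61 include counts without the paralogs or without RPS19BP1, which drop too few genes to move a count by 1.5 times. Against all genes, the NRF2 median rank turned when ranked by fold enrichment (45.4% against 41.9%), and the ACTL6A median distance turned without RPS19BP1 (-109 against -112 bp). The ACTL6A median rank, 20.7% for members and all genes alike, was 20.5% against 20.7% without the paralogs or without RPS19BP1, and 19.7% against 20.1% by fold enrichment. When peaks under a -log10 q of 5 were left out, members with an NRF2 peak fell to 27 (all genes 17.2%). Those with all 3 peaks fell to 19 (all genes 12.1%). With the highest 5000 peaks of each list, 31 members had an ACTL6A peak (all genes 19.4%). A BRG1 peak was left at 23 members (all genes 19%) and all 3 at 12 (all genes 8.27%). From the nearest protein-coding start, the median BRG1 distance was -98 bp (all genes -49 bp). Ranked among peaks at a TSS, the medians were 43.9% for ACTL6A (all genes 43.8%) and 35.6% for BRG1 (all genes 37.2%). Leaving out RPS19BP1, or reading distances only at members with no other gene start within 1 kb, were alternatives chosen after seeing the data. No paired analysis was possible because the antibodies were not replicated.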
